A study of Homo sapiens with 9 samples.

Results

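Histone gene messages were followed in HEK293, a human cell line derived from embryonic kidney, across 3 groups of cells that differed in MOF, the histone acetyltransferase encoded by KAT8. The genes were all those whose single annotated symbol starts with H1-, H2A, H2B, H3-, H3C, H4-, H4C or MACROH2A, and the probe set of highest mean over the arrays stood for each gene. This gave 61 of the 19775 genes named on the arrays: 10 of type H1, 16 of type H2A with the macroH2A genes, 16 of type H2B, 9 of type H3, 9 of type H4, and H1-10-AS1, a noncoding antisense RNA that the rule takes in by its name. They were ordered by histone type, cluster and chromosome, and 4 of the 61 are pseudogenes. Clustered genes were those named H1-1 to H1-6, or H2AC, H2BC, H3C or H4C with an ending number. All others were counted as variant or solitary, among them H1-10-AS1 and the 4 pseudogenes, of which H2AC5P and H4C10P lie on chromosome 6.

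The Knock Down group was HEK293 cells given small interfering RNA against MOF, the Over Expression group was HEK293 cells that had received MOF on a plasmid, and the Wild type group was untreated HEK293 cells. Each group had 3 arrays, 1 for each total RNA sample, and the study as titled concerns MOF, acetylation of lysine 16 of histone H4 and the response to DNA damage. The source label of the knockdown samples speaks of knocked out expression, while the design text speaks of small interfering RNA. Neither the promoter of the plasmid, the sequence of the small interfering RNA nor the time after transfection is given in the sources used here. The design text names a double-stranded RNA against EGFP as control, but samples with it were not analysed here, so transfection and the change in MOF cannot be told apart in comparisons with Wild type. Whether replicates were separate cultures is not stated, and the p-values therefore reflect sample spread that may be only technical. Fewer cells of a kind and less message per cell cannot be told apart either.

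Histones are the proteins around which DNA is wound. Pairs of H2A with H2B and of H3 with H4 build the core of the nucleosome, and the linker histone H1 binds where DNA enters and leaves it. Most histone genes lie in clusters, are switched on as DNA replicates, and give messages that end in a stem-loop without a poly(A) tail, although some of them also give polyadenylated messages. Variant histones such as H2A.Z, H3.3 and macroH2A come from solitary genes with ordinary polyadenylated messages and replace the canonical forms outside replication, while the H2A.X gene is known to give both kinds of message. Acetylation of H4 by MOF acts on the histone proteins, whereas the arrays measured their messages. How far the arrays read messages without a poly(A) tail was not tested, so signals of clustered genes may not stand for all their messages.

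The promoters of the 5 genes that passed the test in at least 1 comparison are shown, and no others, since they were chosen by that test. Each run holds the 250 bases before the gene's start, from RefSeq with the build GRCh38.p14. Capitals mark CCAAT, the CCAAT box, ATTTGCAT, the octamer read by POU2F1, and TATAAA, the TATA box, each searched as these letters on both strands (so also as ATTGG, ATGCAAAT and TTTATA). The stretches are chr7:44848088-44848337 on the minus strand for H2AZ2, chr12:14774155-14774404 on the plus strand for H2AJ, chr10:70052596-70052845 on the plus strand for MACROH2A2, chr6:26123922-26124171 on the plus strand for H2AC6 and chr1:228457874-228458123 on the minus strand for H2AC25.
H2AZ2: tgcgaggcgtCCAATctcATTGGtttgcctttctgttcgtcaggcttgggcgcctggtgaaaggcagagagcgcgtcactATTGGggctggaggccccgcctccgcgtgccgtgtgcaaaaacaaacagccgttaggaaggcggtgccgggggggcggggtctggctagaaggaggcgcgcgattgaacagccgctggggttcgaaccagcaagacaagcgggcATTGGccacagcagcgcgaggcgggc
H2AJ: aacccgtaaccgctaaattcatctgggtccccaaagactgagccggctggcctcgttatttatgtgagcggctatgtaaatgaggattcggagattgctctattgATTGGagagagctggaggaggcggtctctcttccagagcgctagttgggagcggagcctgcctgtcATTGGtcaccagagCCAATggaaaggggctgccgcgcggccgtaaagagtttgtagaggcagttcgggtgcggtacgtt
MACROH2A2: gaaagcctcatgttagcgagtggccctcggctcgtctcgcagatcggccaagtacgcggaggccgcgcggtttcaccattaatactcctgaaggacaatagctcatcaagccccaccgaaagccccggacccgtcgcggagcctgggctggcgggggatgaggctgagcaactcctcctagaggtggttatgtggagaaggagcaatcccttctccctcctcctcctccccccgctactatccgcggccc
H2AC6: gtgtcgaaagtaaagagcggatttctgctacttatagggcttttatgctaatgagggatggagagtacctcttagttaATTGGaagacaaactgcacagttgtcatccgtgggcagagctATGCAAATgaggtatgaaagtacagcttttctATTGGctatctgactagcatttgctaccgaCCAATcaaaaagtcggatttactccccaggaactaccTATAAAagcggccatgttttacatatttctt
H2AC25: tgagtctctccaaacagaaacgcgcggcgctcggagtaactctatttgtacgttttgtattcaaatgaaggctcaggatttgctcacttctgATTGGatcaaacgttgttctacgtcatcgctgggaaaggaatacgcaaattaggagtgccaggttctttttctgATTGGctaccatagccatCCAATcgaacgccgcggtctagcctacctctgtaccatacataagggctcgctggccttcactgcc

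The run of H2AZ2 held 4 matches to the CCAAT box, those of H2AJ, H2AC6 and H2AC25 held 3 each, and that of MACROH2A2 held none of the 3 motifs. An octamer and a TATA box were found only in that of H2AC6 among these 5 runs. Of the 61 windows of 53 histone genes in the table, 83.6% held a CCAAT box, 27.9% an octamer and 55.7% a TATA box, against 32% (CCAAT box), 1.63% (octamer) and 10.7% (TATA box) of all 35116 windows. The octamer was in 17 of 43 windows of clustered histone genes and in 0 of 18 windows of variant or solitary ones. All 17 were windows of clustered H2A genes (6 of 8) or clustered H2B genes (11 of 15). A stretch shared by both genes of a pair was counted for each gene that has a window here. Of the 8 clustered H2A genes with a window, 6 shared theirs with an H2B gene that starts in the opposite direction, counted over the full windows of 300 bases. H2AC6 shares 255 bases with H2BC4 and H2AC25 shares 271 bases with H2BC26, so the same stretch lies before both genes of each pair. These matches describe the letters in the windows and say nothing of binding.

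All 9 arrays had been scaled to 1 trimmed mean signal (1500.2, with 2% trimmed), which hides any change in the RNA content of the cells. The replicate 1 arrays, 1 of each group, stood apart: the spiked poly-A controls were 2.22-fold brighter on the replicate 2 and 3 arrays. Calls that move with a term for these arrays are given beside their results. KAT8 read 432, 706 and 517 on the Knock Down arrays, 4594, 4727 and 4763 on the Over Expression arrays and 2909.5, 3797 and 3249 on the Wild type arrays, all in the authors' linear signal units. It fell after knockdown (log2 fold change -2.61, SE 0.17, limma adjusted p = 4.72e-05), all Over Expression arrays lay above the Wild type arrays, and that difference did not pass (log2 fold change 0.51, SE 0.17, limma adjusted p = 0.259). Of 9 measured HEK293 markers 8 were above the filter on dim probe sets, and LHX1 was below it, while 2 of 10 measured markers of blood, liver, fibroblasts and endothelium were above it (COL1A1 and PECAM1).

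Of the 61 histone genes, 28 were bright enough to be tested, which meant a mean log2 signal over the 9 arrays at or above the median of all probe sets (7.56). Of the 42 clustered genes 18 were tested, and of the 19 variant or solitary genes 10. By type the tested genes were 4 of 10 for H1, 10 of 16 for H2A, 7 of 16 for H2B, 3 of 9 for H3 and 4 of 9 for H4. The dimmest tested gene, H4C4, had a mean log2 signal of 7.67 and the brightest untested gene, H2BC17, one of 7.47. No signal of the 33 untested genes exceeded 335, among them the germ cell linker histone genes H1-6, H1-7 and H1-8, H2BC1 and H2BW2, the clustered genes H1-1 and H1-5, and H1-10-AS1. Counts over the 28 say nothing of the other 33. Of the 28, 16 were read by probe sets whose ID ends in _s_at or _x_at, marks of the array design for probes shared with other transcripts, and near-identical family members may add to those signals.

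After knockdown, 4 of the 28 tested histone genes fell and none rose, against 15.7% of all 27307 probe sets that passed limma's test in either direction, 8.89% lower and 6.82% higher. Counted in either direction, 4 of 28 is a share near that background. All 4 were of the H2A type: the variants H2AZ2, H2AJ and MACROH2A2 and the clustered gene H2AC6. The falls were between 1.37-fold and 1.54-fold. Of the 18 tested genes of types H1, H2B, H3 and H4 none passed over all probe sets. At an unadjusted p under 0.05 there were 3 of these 18, beside 8370 of all 27307 probe sets. Whether the H2A genes differed from the other types was not tested. Probe sets annotated to several H2A genes fall outside the naming rule, and 1 of 4 tested ones passed as higher after knockdown. In 8 of the 28 genes, 4 lower and 4 higher, the Knock Down and Wild type arrays did not overlap, where 35.2% of all probe sets did not (18.3% lower, 16.9% higher).

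H2AZ2 encodes H2A.Z.2, a variant that sits in nucleosomes near gene starts. Its signal was 16138, 15388 and 14615 in Knock Down cells, against 24644, 22321 and 24156 in Wild type cells. All 3 Knock Down arrays lay below all 3 Wild type arrays, and the gene fell 1.54-fold (log2 fold change -0.62, SE 0.08, limma adjusted p = 0.000692, n = 3 per group). This call was kept in all 14 other settings of the test, with adjusted p at most 0.0069. H2AZ1, which encodes the close relative H2A.Z.1, did not pass: its signal was 93530.0, 96436 and 90282 in Knock Down cells, against 81470.4, 89444 and 91456 in Wild type cells (log2 fold change 0.10, SE 0.06, limma adjusted p = 0.339). It passed as higher only with quantile normalization added (log2 fold change 0.17, limma adjusted p = 0.0218).

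H2AJ encodes H2A.J, a mammalian variant known to gather in senescent fibroblasts. It read 2049, 1888 and 1648 in Knock Down cells and 3201, 2927 and 2505 in Wild type cells. The groups did not overlap, and H2AJ fell 1.54-fold (log2 fold change -0.63, SE 0.13, limma adjusted p = 0.00884). MACROH2A2, one of the pair of genes for macroH2A, a variant with a large domain outside the nucleosome that is associated with silent chromatin, read 3249, 3582 and 3804 in Knock Down cells and 4614, 5157 and 4851 in Wild type cells. Here too the groups did not overlap, and MACROH2A2 fell 1.38-fold (log2 fold change -0.46, SE 0.10, limma adjusted p = 0.00937). Both calls held in all 14 other settings, with adjusted p up to 0.0411 for H2AJ and 0.0476 for MACROH2A2.

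H2AC6, a clustered H2A gene on chromosome 6 that is among those known to give polyadenylated messages as well, read 931, 925 and 1012 in Knock Down cells and 1359.7, 1265 and 1294 in Wild type cells. The 3 Knock Down arrays lay below the 3 Wild type arrays (log2 fold change -0.45, SE 0.13, limma adjusted p = 0.0417). This call was close to the threshold: it ended without any 1 of the 6 arrays compared (adjusted p from 0.0761 to 0.119), with no filter on dim probe sets, and within replicates 2 and 3 alone (for these, adjusted p = 0.0784). H2BC4, which shares the promoter stretch of H2AC6, was too dim to be tested, with 74.1, 178 and 184 in Knock Down cells and 39.1, 79.8 and 131 in Wild type cells, values that overlap.

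**Figure D1:**
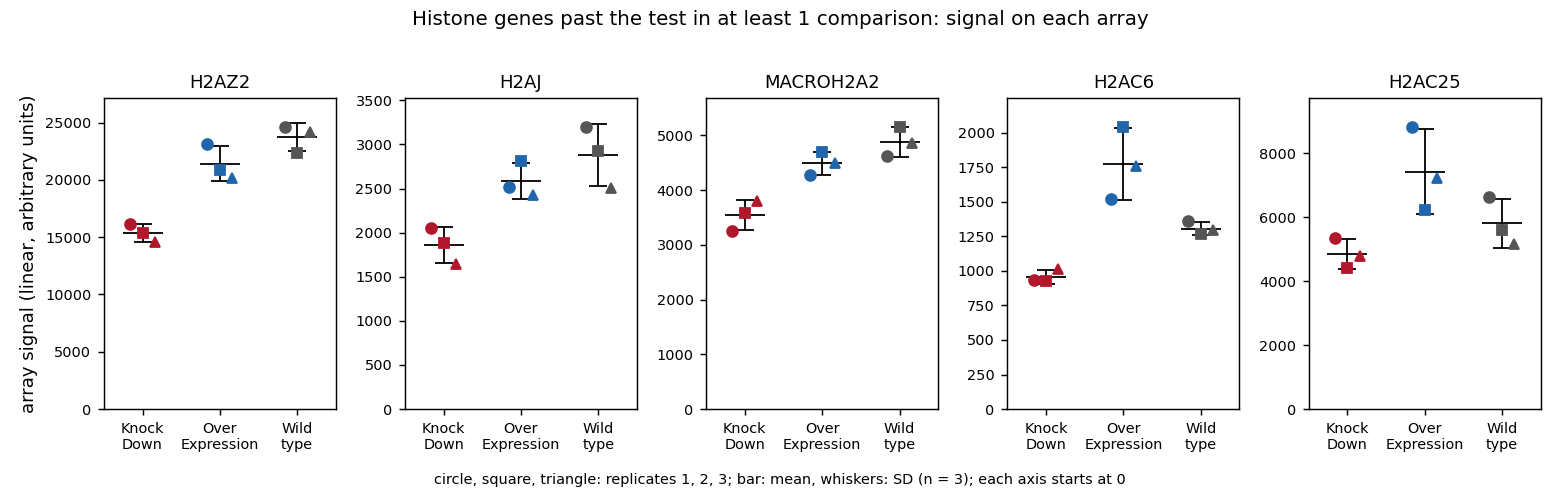
Signal of the 5 histone genes past the test in at least 1 comparison, in the authors' linear units on the vertical axes, which start at 0, for Knock Down, Over Expression and Wild type cells on the horizontal axes; symbols are single arrays, bars the mean and whiskers the SD of 3. For H2AZ2, H2AJ, MACROH2A2 and H2AC6 the 3 Knock Down arrays lie below all arrays of both other groups, and for H2AC25 they lie below the Over Expression arrays.

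The tested H2B genes showed no call after knockdown, but 3 of 7 had all Knock Down arrays above all Wild type arrays, beside the 16.9% of all probe sets. H2BC9 read 1321, 1292 and 1639.7 in Knock Down cells and 918, 1221 and 1019 in Wild type cells (log2 fold change 0.43, SE 0.15, limma adjusted p = 0.0756). H2BC12, a clustered H2B gene on chromosome 6, read 21522, 24449 and 22945 in Knock Down cells and 18289, 20209 and 20959 in Wild type cells (log2 fold change 0.21, SE 0.08, limma adjusted p = 0.0856). For H2BC5, from the same cluster, the values were 3994, 3699 and 3326 in Knock Down cells and 3029.8, 3075 and 3119 in Wild type cells (log2 fold change 0.25, SE 0.11, limma adjusted p = 0.134). With the replicate number as a block, 9 histone genes passed in place of 4, and these 3 H2B genes were the 3 higher ones (adjusted p = 0.0301 for H2BC9, 0.0147 for H2BC12 and 0.0419 for H2BC5). The 6 lower ones under the block were the 4 above with H2AC25 (adjusted p = 0.0314) and MACROH2A1 (adjusted p = 0.023). MACROH2A1 stands here by its brightest probe set, and its 5 tested probe sets disagreed in sign. A term for the replicate 1 arrays gave the same 9 genes. H2BC12L, a solitary H2B gene on chromosome 21, read 7809, 7605 and 7344 in Knock Down cells and 8085, 7036 and 6643 in Wild type cells, which overlap (log2 fold change 0.07, SE 0.10, limma adjusted p = 0.669).

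No tested gene of types H1, H3 and H4 passed after knockdown. H1-2, a clustered linker histone gene, read 3152, 2949 and 2552 in Knock Down cells and 3094, 3187 and 3236 in Wild type cells (log2 fold change -0.14, SE 0.10, limma adjusted p = 0.38). H1-10, the replication-independent H1 variant H1.X, read 14591, 12211 and 15979.9 in Knock Down cells and 19438, 15314 and 14372 in Wild type cells (log2 fold change -0.20, SE 0.19, limma adjusted p = 0.527). The groups overlapped in both, and neither passed, nor did H1-4 (log2 fold change 0.19, SE 0.20). H2AX, whose product is phosphorylated at DNA breaks, read 31793, 24245 and 26443 in Knock Down cells and 28270.2, 23056 and 22553 in Wild type cells, which overlap (log2 fold change 0.16, SE 0.15, limma adjusted p = 0.512). The H3 genes had log2 fold changes of 0.33 (SE 0.23) for H3C2, -0.22 (SE 0.24) for H3C6 and 0.22 (SE 0.25) for H3-3A, which encodes the variant H3.3. The probe set that stands for H3-3A read 1220.1, 933 and 1178 in Knock Down cells and 1170.5, 646 and 1115 in Wild type cells, which overlap. Probe sets annotated to both H3.3 genes fall outside the naming rule, and 3 of 8 tested ones passed as higher after knockdown, so the H3-3A value alone does not describe H3.3 messages. Of the H4 genes, whose product carries the residue that MOF acetylates, H4C11, H4C5 and H4C8 had -0.07 (SE 0.13), 0.30 (SE 0.26) and 0.07 (SE 0.28). H4C11, the brightest of them, read 1084, 1103 and 1212 in Knock Down cells and 1298, 1103 and 1167 in Wild type cells, which overlap. H4C4 had the lowest estimate among the 28, -0.80, with an SE of 0.36 (limma adjusted p = 0.165). Its values were 104, 145 and 186 in Knock Down cells and 175, 303 and 279.8 in Wild type cells, which overlap. Probe sets annotated to several H4 genes, 1 of them far brighter, fall outside the naming rule. The 3 tested ones had log2 fold changes from -0.39 to -0.11, none passing. The values of single H4 genes therefore do not describe all H4 messages.

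Over the 28 genes the median log2 fold change after knockdown was -0.01, with 14 below 0 and 14 above, beside a median of 0.01 over all probe sets tested. By type the median was -0.23 for the 10 H2A genes, 0.21 for the 7 H2B genes, -0.17 for the 4 H1 genes, 0.22 for the 3 H3 genes and -0.00 for the 4 H4 genes. Clustered genes had a median of -0.01 (18 tested, 1 lower) and variant or solitary genes one of -0.06 (10 tested, 3 lower). By chromosome, the 16 tested clustered genes on chromosome 6 had a median of 0.05 with 1 lower. The 2 on chromosome 1, H2AC25 and H2BC21, had -0.25 and -0.28 with no call. They were grouped by chromosome alone, not as members of the same cluster.

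After overexpression none of the 28 tested histone genes passed limma's test, where 0.476% of all probe sets did. At an unadjusted p under 0.05 there were 6, beside 3351 of all 27307 probe sets. The median log2 fold change was 0.06, beside 0.01 over all probe sets. The smallest p belonged to H2BC5, which read 4442, 3952 and 3647 in Over Expression cells and 3029.8, 3075 and 3119 in Wild type cells (log2 fold change 0.38, SE 0.11, limma adjusted p = 0.185). All 3 of its Over Expression arrays lay above its Wild type arrays. H2AC6 read 1521, 2043 and 1759 in Over Expression cells, against the Wild type values given above (log2 fold change 0.43, SE 0.13, limma adjusted p = 0.228), also without overlap. H4C8 read 348, 456 and 288 in Over Expression cells and 198, 194 and 261 in Wild type cells (log2 fold change 0.73, SE 0.28, limma adjusted p = 0.32).

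In all, 8 of the 28 did not overlap between these groups, 5 higher and 3 lower, where 17.6% of all probe sets did not (9.92% higher, 7.67% lower). The 3 lower were H1-2, H2AC14 and H3C2. All 7 tested H2B genes had a log2 fold change above 0, from 0.04 for the pseudogene H2BW4P to 0.38 for H2BC5, none with a call. With a term for the replicate 1 arrays, 2 genes passed, both higher: H2BC5 (adjusted p = 0.0286) and H2AC25 (adjusted p = 0.0308). The 3 genes that fell most clearly after knockdown had small estimates here, -0.15 (SE 0.08) for H2AZ2, -0.15 (SE 0.13) for H2AJ and -0.12 (SE 0.10) for MACROH2A2. These 2 comparisons share the Wild type arrays.

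**Figure D2:**
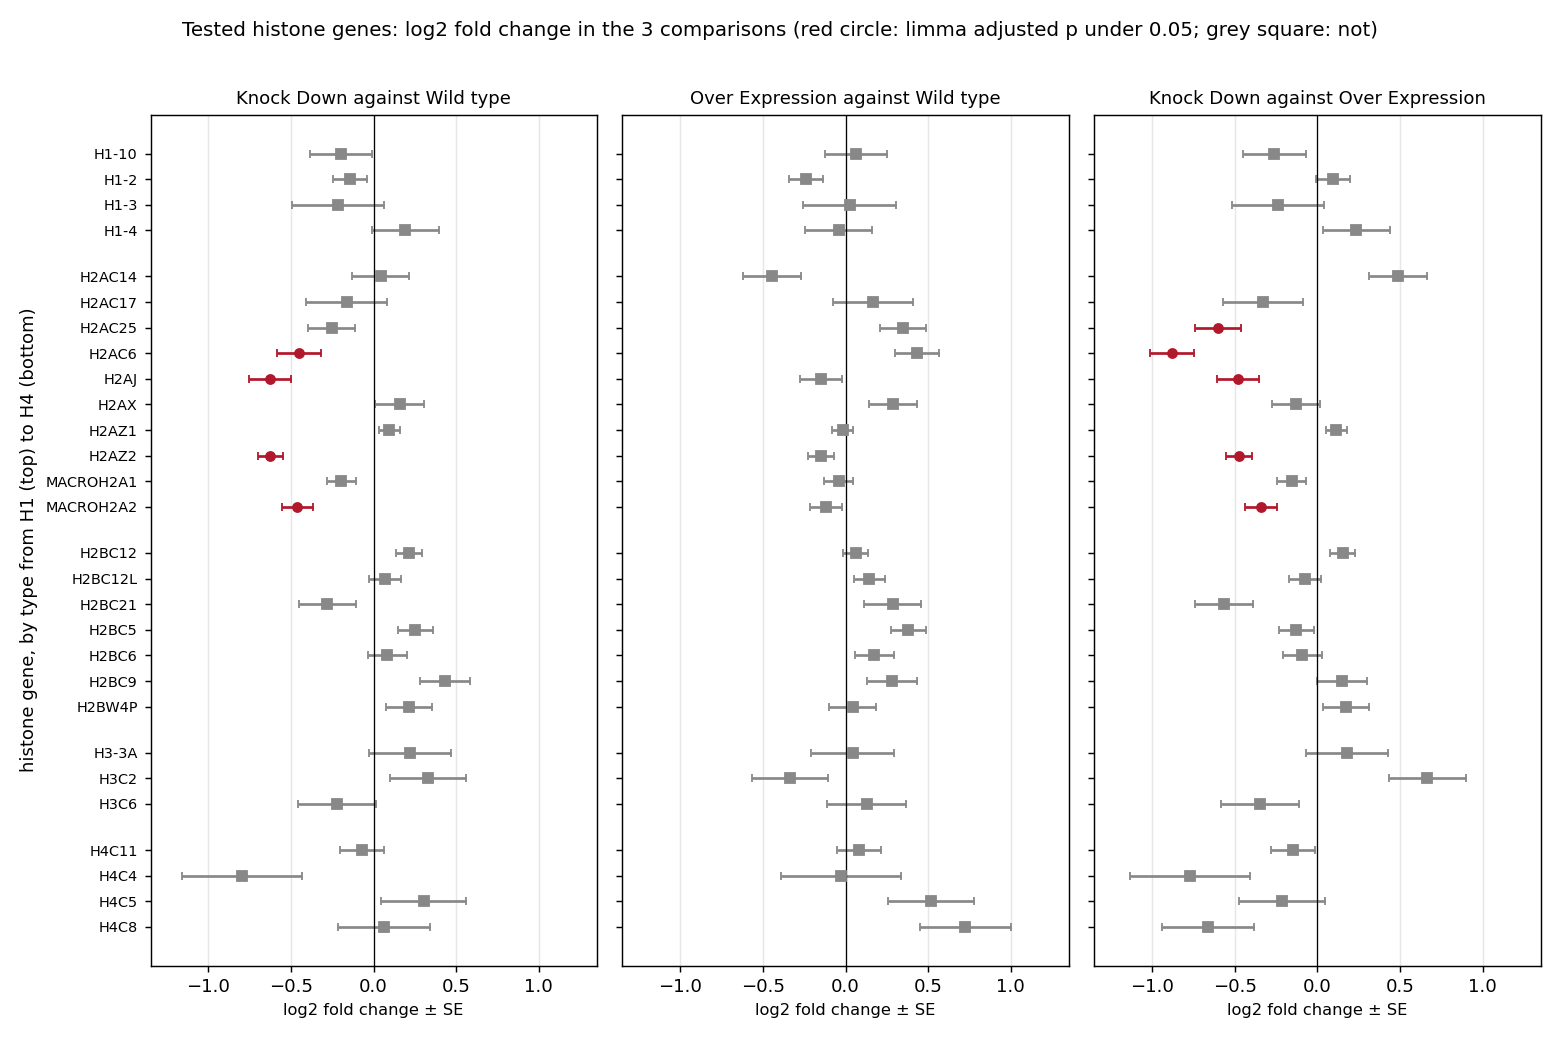
Log2 fold change with its SE (horizontal axes) for the 28 tested histone genes, ordered by type from H1 at the top to H4 at the bottom, in the 3 comparisons; red circles passed the limma test and grey squares did not. The calls, 4 after knockdown, 0 after overexpression and 5 between the treated groups, all lie below 0 and all among the H2A genes.

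Between the transfected groups, 5 of the 28 tested histone genes were lower in Knock Down than in Over Expression cells and none was higher, where 8.76% of all probe sets passed lower, 5.75% higher and 14.5% in either direction. The 5 were all of the H2A type; this comparison shares the Knock Down arrays with that against Wild type. In it 4 of the 8 tested HEK293 markers were also lower (PAX2, KRT8, INA and KRT18), and their part in the histone values was not tested. In 10 genes, 7 lower and 3 higher, the arrays of these groups did not overlap, where 33.7% of all probe sets did not (18.7% lower, 14.9% higher). H2AC6 differed 1.84-fold, with 931, 925 and 1012 in Knock Down cells against 1521, 2043 and 1759 in Over Expression cells (log2 fold change -0.88, SE 0.13, limma adjusted p = 0.00209). H2AZ2 differed 1.39-fold, with 23135, 20882 and 20203 in Over Expression cells, all above the Knock Down arrays (log2 fold change -0.48, SE 0.08, limma adjusted p = 0.00314). Both calls were kept in all 14 other settings.

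H2AC25, a clustered H2A gene that lies apart from the large cluster, on chromosome 1, read 5336, 4415 and 4797 in Knock Down cells, against 8824, 6209.7 and 7222 in Over Expression cells. It differed 1.52-fold (log2 fold change -0.60, SE 0.14, limma adjusted p = 0.0161), and its Wild type values, 6641, 5609.6 and 5149, overlapped those of both other groups. The call ended without Knock Down replicate 2, Knock Down replicate 3 or Over Expression replicate 3 (adjusted p up to 0.0658). H2AJ differed 1.39-fold, with 2521, 2818 and 2429.6 in Over Expression cells (log2 fold change -0.48, SE 0.13, limma adjusted p = 0.0296), and MACROH2A2 1.27-fold, with 4279, 4697 and 4486 in Over Expression cells (log2 fold change -0.34, SE 0.10, limma adjusted p = 0.0354). Both had no overlap with the Knock Down arrays, but when single arrays were dropped each call survived once in 6 fits: H2AJ without Knock Down replicate 1 and MACROH2A2 without Over Expression replicate 1, with adjusted p up to 0.112 and 0.102 in the others. MACROH2A2 also lost it with no trend, no filter or only the compared groups (adjusted p = 0.0592, 0.0529 and 0.0629). Without Knock Down replicate 2, Knock Down replicate 3 or Over Expression replicate 3 the count was 2 (H2AC6 and H2AZ2), and without Over Expression replicate 2 it was 3 (these with H2AC25).

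Other genes came near the threshold. H2BC21, an H2B gene on chromosome 1 next to H2AC20, read 594, 450.4 and 453 in Knock Down cells and 712, 660.5 and 837 in Over Expression cells (log2 fold change -0.57, SE 0.17, limma adjusted p = 0.0506), without overlap. It passed with the replicate block (adjusted p = 0.0375). In the opposite direction, H3C2 read 356, 363 and 517 in Knock Down cells and 209, 269 and 296 in Over Expression cells (log2 fold change 0.67, SE 0.23, limma adjusted p = 0.0801). H2AC14, a clustered H2A gene, also had its Knock Down arrays, 646, 679 and 816, above its Over Expression arrays, 586, 442 and 502 (limma adjusted p = 0.0859). Over the 28 genes the median log2 difference was -0.15, with 19 below 0, beside -0.01 over all probe sets. All 4 tested H4 genes were below 0, from -0.77 for H4C4 to -0.15 for H4C11, none with a call.

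Several genes were read by more than 1 tested probe set, and these did not always give the same size. H2AZ2 had 4, which after knockdown gave log2 fold changes of -0.62, -0.25, -0.21 and -0.44 from the brightest to the dimmest, of which the first and the last passed (limma adjusted p = 0.000692 and 0.00644). The last of them has no _s_at or _x_at mark. Against Over Expression cells all 4 passed, between -0.47 and -0.61. H2AJ had 2, which both passed after knockdown (-0.63 and -0.78) and both carry the _x_at mark.

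MACROH2A1, the other macroH2A gene, had 5 probe sets that disagreed in sign after knockdown. Its 2 brightest gave -0.20 (SE 0.09) and -0.19 (SE 0.11), and the 3 others 0.41 (SE 0.18), 0.54 (SE 0.21) and 0.44 (SE 0.21). None passed over all probe sets in the fit without a block. With the replicate block the brightest passed as lower (limma adjusted p = 0.023). The brightest probe set of MACROH2A1 read 29872, 33820.1 and 34918 in Knock Down cells and 34366, 37475 and 41172 in Wild type cells, which overlap. H2AX had 3, and the second brightest had the smallest p of the 3 in both comparisons with Wild type, at 0.43 (SE 0.14, limma adjusted p = 0.0568) after knockdown and 0.70 (SE 0.14, limma adjusted p = 0.0626) after overexpression. The probe sets of H3C6 also differed in sign after knockdown, at -0.22 and 0.21, with no call.

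**Figure D3:**
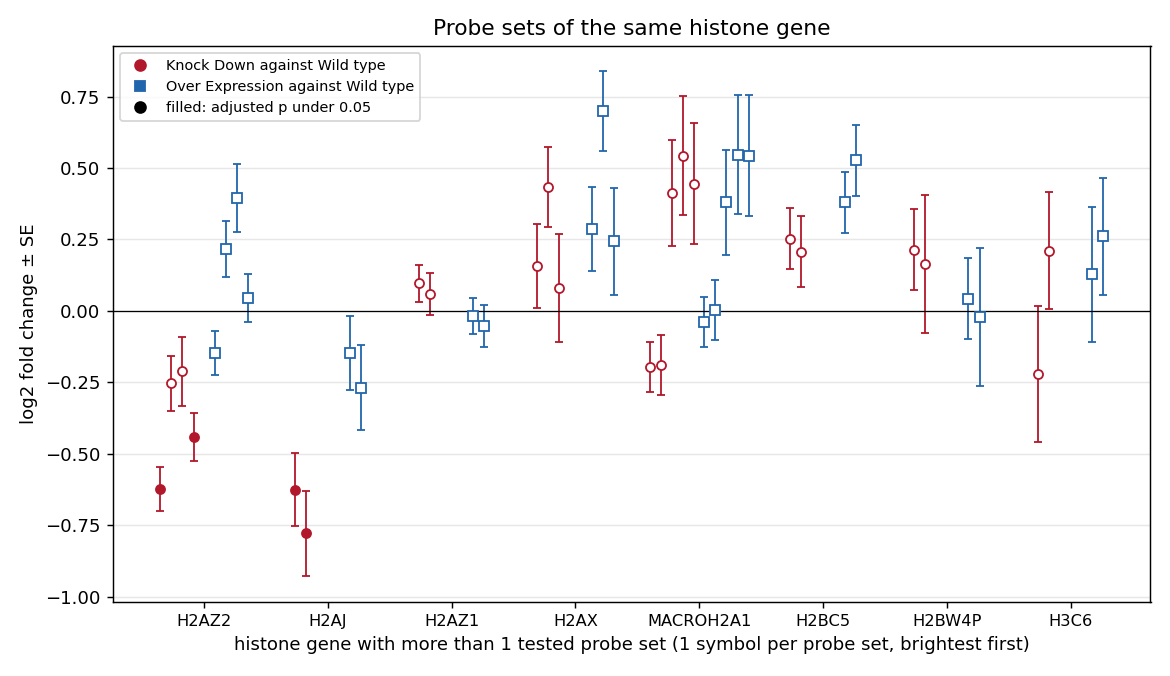
Log2 fold change with its SE (vertical axis) for each tested probe set of the 8 histone genes with more than 1 (horizontal axis, the brightest first within a gene), red circles for Knock Down and blue squares for Over Expression, each against Wild type; filled symbols passed the test. All 4 probe sets of H2AZ2 and both of H2AJ lie below 0 after knockdown, while those of MACROH2A1 and H3C6 lie on both sides.

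Genes that make, process or place histones were given as context from lists of known function. Of 18 measured genes of histone message synthesis and processing, SLBP rose after knockdown and CPSF3, CSTF2 and LSM10 fell, which is 4 of 18 beside the 15.7% of all probe sets. SLBP binds the stem-loop at the end of replication-dependent histone messages, and its signal was 22922, 26182 and 24534 in Knock Down cells, against 18613, 19529.8 and 20225 in Wild type cells (log2 fold change 0.33, SE 0.08, limma adjusted p = 0.0141). CPSF3, the nuclease that cuts histone and polyadenylated messages, fell by 0.49 on the log2 scale (SE 0.08), LSM10, a subunit of the U7 particle, by 0.36 (SE 0.10) and CSTF2, a cleavage factor, by 0.33 (SE 0.10). NPAT, which activates the clustered genes in S phase, had a log2 fold change of 0.00 (SE 0.14).

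Of 30 measured histone chaperone and deposition genes 4 rose and 1 fell after knockdown, 5 of 30 beside the 15.7% of all probe sets, a share near that background. IPO4, an importin for H3 and H4, read 4684, 4537 and 5132 in Knock Down cells and 3249, 2862 and 2569 in Wild type cells, without overlap (log2 fold change 0.73, SE 0.11, limma adjusted p = 0.00229). DAXX, a chaperone of H3.3, rose by 0.59 (SE 0.11), ASF1B, a chaperone of H3 with H4, by 0.46 (SE 0.13) and SET by 0.26 (SE 0.06), and NASP, a chaperone of H1 and of H3 with H4, fell by 0.28 (SE 0.08). Among genes on this list that place or remove H2A.Z, SRCAP, EP400, INO80 and ANP32E did not pass. SRCAP had a log2 fold change of 0.42 (SE 0.23), EP400 -0.02 (SE 0.16), INO80 -0.21 (SE 0.11) and ANP32E 0.17 (SE 0.15). CENPA, the centromeric H3 variant that the naming rule does not take in, had 0.22 (SE 0.10).

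Of 18 DNA replication genes, given as a measure of S phase, CDT1, UHRF1 and RRM2 rose and GINS1 and MCM6 fell after knockdown, 5 of 18 beside the 15.7% of all probe sets (6.82% higher, 8.89% lower), with a list median of -0.00. Their summed signal ran from 359900.1 to 370977.5 over the Knock Down arrays, from 352849.6 to 359957.6 over the Over Expression arrays and from 352031.0 to 365612.1 over the Wild type arrays. After overexpression none of the 18 processing, 30 chaperone and 18 replication genes passed limma's test. At an unadjusted p under 0.05 there were 3, 1 and 2 of them, beside 3351 of all 27307 probe sets. Against Over Expression cells, Knock Down cells had 2 processing genes higher (LSM11 and SLBP) and 3 lower (CPSF3, CSTF2 and LSM10), 2 chaperone genes higher (IPO4 and SET) and 2 lower (NASP and RBBP7), and 1 replication gene higher (RRM2) and 2 lower (E2F1 and GINS1). These are 5 of 18, 4 of 30 and 3 of 18, beside the 14.5% of all probe sets called in that comparison. Of the 8 tested HEK293 markers, PAX2 and KRT8 fell after knockdown, by 1.07 (SE 0.20) and 0.57 (SE 0.14). After overexpression none of the 8 passed limma's test, and their median log2 fold change was 0.26. At an unadjusted p under 0.05 there were 5 of the 8, beside the same 3351 of all 27307 probe sets. Between Knock Down and Over Expression cells 4 of the 8 were lower, beside 8.76% of all probe sets, with a median of -0.28 and the lowest value, -1.66 (SE 0.20), for PAX2. The summed signal of the 8 ran from 100433.2 to 114600.7 in Knock Down, from 96397.5 to 114906.3 in Over Expression and from 103846.3 to 109276.9 in Wild type cells. The part of these lists in the histone results was not tested.

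**Figure D4:**
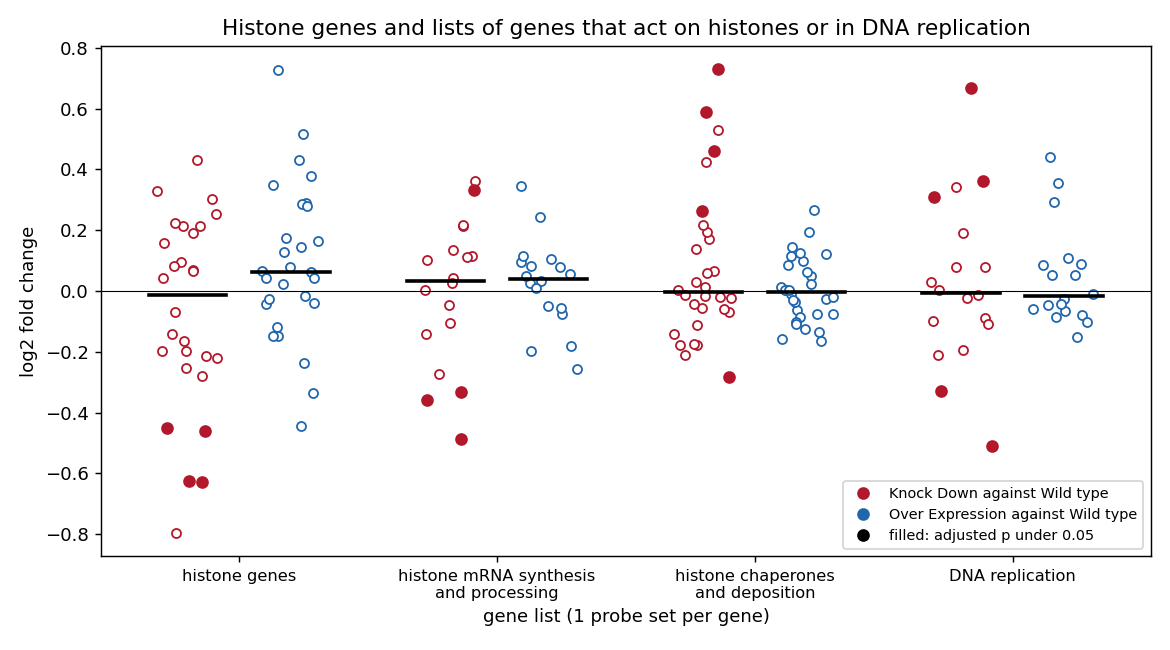
Log2 fold change (vertical axis) of the 28 tested histone genes and of 3 lists of genes (horizontal axis), with Knock Down in red and Over Expression in blue, each against Wild type; each point is a gene, filled where it passed the test, and black bars are medians. After knockdown the 4 histone genes that passed all lie below 0, while each of the 3 lists holds genes on both sides, and no gene shown passed after overexpression.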

How the data were processed

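The authors deposited a linear intensity for each probe set on each array. Per the submitters' processing notes these came from MAS5, with version and settings not given in the sources used here. Detection calls and array images were not used here, so no value could be called absent. The intensity was transformed to log2(signal + 1). Of 54675 probe sets, 62 controls were left out, and the 27307 whose mean log2 signal reached the median (7.56) were tested by lmFit and trended eBayes from limma 3.58.1 (R 4.3.3), where a single fit of the 9 arrays left 6 residual degrees of freedom. Tests were two-sided, with Benjamini-Hochberg adjustment over all tested probe sets and a threshold of 0.05. The fit was tested on simulated data. On the log2(signal + 1) scale the fold changes of dim genes are understated. For tested genes this is slight, since the filter lay at a signal of 188, far above the added 1. Precision is limited by 3 arrays per group.

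Gene names came from the annotation table of the array platform, which gives a single symbol to 41097 probe sets, more than 1 to 1801 and no symbol to 11777. All 61 histone genes matched the RefSeq table of GRCh38.p14 by Entrez ID, used for chromosome and biotype. The members, lists, motifs and tests were chosen with earlier results of these data known. Genes named with values were set by rule: each histone gene past the threshold in any comparison, the 3 of highest mean of each type, the 3 of smallest p in each comparison, and KAT8. H1-6, H2AC14, H2BC4, H2BC9, H2BC17, H2BC21, H2BW4P and H4C4 were named with values after their values were seen, as were the context genes that did not pass.

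Replicate numbers were checked for pairing by correlating deviations from the group means. Same-numbered arrays correlated at 0.14 to 0.36 between Knock Down and Wild type and at 0.11 to 0.35 between Knock Down and Over Expression, over the bound of 0.1, so blocked fits (a term per replicate number) are given for both comparisons where they move a result. Between Over Expression and Wild type they ran from 0.083 to 0.447, with the lowest under that bound. Some arrays of different numbers correlated as much: 0.180 for Knock Down replicate 2 with Wild type replicate 3. For Over Expression replicate 2 with Wild type replicate 3 it was 0.284. Replicate 1 correlated below 0 with replicates 2 and 3 of other groups. The check thus does not show that replicates 2 and 3 were matched by number across groups. Correlations within groups ran from 0.973 to 0.985. Other settings tried were a pseudocount of 50, no filter, quantile normalization, no trend, a term for replicate 1, replicates 2 and 3 alone, only the compared groups, each array left out, and members with shared probe sets left out. Figures were drawn with matplotlib 3.10.9.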

Additional observations from a re-analysis of the deposited data

How the results depend on the processing

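With the replicate number as a block, or with a term for the replicate 1 arrays, 9 histone genes passed after knockdown (3 higher, 6 lower) in place of 4, 2 passed after overexpression (both higher) in place of 0, and 6 passed between knockdown and overexpression in place of 5. Leaving out members read by _s_at or _x_at probe sets left 1 gene after knockdown (MACROH2A2) and 2 between knockdown and overexpression (H2AC25 and MACROH2A2), since 16 of the 28 tested genes then drop out. Leaving out 1 array gave 3 genes after knockdown in each of 6 fits, 0 after overexpression, and from 2 to 5 between knockdown and overexpression. Counts under a pseudocount of 50, no filter, quantile normalization, no trend, replicates 2 and 3 alone and only the compared groups stayed within 1.5 times the main count. No called gene changed sign in any of these settings. SEs of the log2 fold change ran from 0.06 (H2AZ1) to 0.36 (H4C4), so a difference of a given size was harder to call in some genes than in others. The cause of the changes with the replicate terms was not tested.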

Other observations

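Probe sets annotated to several genes fell outside the rule for histone genes and were not named to a gene, but 29 of them hold histone symbols and 18 were tested. After knockdown 4 of the 18 passed, all higher, against 15.7% of all probe sets in either direction: 3 of the 9 of type H3 and 1 of the 4 of type H2A. The 4 of type H2A had log2 fold changes from 0.16 to 0.43, opposite in sign to the H2A genes called after knockdown. The one that passed, annotated to both H2AC18 and H2AC19, read 7211, 6289 and 6342 in Knock Down cells. Its Wild type values were 5937.5, 4835.6 and 4827.3, without overlap (log2 fold change 0.35, SE 0.10, limma adjusted p = 0.0402). All 3 of type H3 that passed were annotated to both genes of the variant H3.3, H3-3A and H3-3B, with a further symbol. These symbols name both genes, and which of them gave the signal was not tested. Of the 8 tested probe sets with both H3.3 symbols, the 5 others did not pass, and the 8 disagreed in direction. One that passed read 65309, 65258 and 60846 in Knock Down cells and 50535, 48809 and 52204 in Wild type cells, without overlap (log2 fold change 0.34, SE 0.06, limma adjusted p = 0.0051). One that did not pass read 115304, 117434 and 99398 in Knock Down cells and 121624, 132473 and 131525 in Wild type cells, also without overlap but lower (log2 fold change -0.22, SE 0.08, limma adjusted p = 0.0958). Log2 fold changes of the 8 ran from -0.22 to 0.59 and divided by the further symbol. Those with MIR4738, which include all 3 that passed, ran from 0.14 to 0.59, and those with H3P6 from -0.22 to -0.01. The source of this split was not tested.

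The brightest of the 3 tested probe sets annotated to several H4 genes read 104735, 116022 and 101391 in Knock Down cells, 114311, 124959 and 108865 in Over Expression cells and 107955, 133158 and 136131 in Wild type cells, and did not pass after knockdown (log2 fold change -0.22, SE 0.09, limma adjusted p = 0.13). All 3 tested H4 probe sets of this kind were below 0 after knockdown, from -0.39 to -0.11, none passing. Between Knock Down and Over Expression cells 2 of the 18 passed, beside 14.5% of all probe sets. The higher one was the H3.3 probe set given above as passing, with 65309, 65258 and 60846 in Knock Down cells and 54472, 50658 and 49951 in Over Expression cells (log2 fold change 0.30, SE 0.06, limma adjusted p = 0.00861). The lower one was of type H4, with 955, 751 and 832 in Knock Down cells and 1015, 1228 and 1345 in Over Expression cells (log2 fold change -0.50, SE 0.15, limma adjusted p = 0.0495), and the arrays did not overlap in either. After overexpression none of the 18 passed limma's test, 3 of them at an unadjusted p under 0.05, beside 3351 of all 27307 probe sets. Among genes too dim to test, the testis-specific linker histone gene H1-6 read 132, 31.9 and 14 in Knock Down cells, 153, 259 and 115 in Over Expression cells and 111, 145 and 239 in Wild type cells, where no order can be read from signals this low.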
